A study of Rattus norvegicus with 12 samples.

Results

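The genes described here are 9 rat genes for matricellular and matrix remodelling proteins: Ctgf, Cyr61, Postn, Tnc, Spp1, Thbs1, Fn1, Lox and Timp1. They were picked by name, collagens left out, with earlier results of these data known. All 9 were found among the 18469 genes of the count table. In newer nomenclature Ctgf is Ccn2 and Cyr61 is Ccn1. Matricellular proteins are secreted into the extracellular matrix, where they signal to cells through integrins and other receptors more than they bear load. In the heart they are scarce in healthy adult muscle and come back after injury or pressure overload, made largely by fibroblasts and in part by myocytes. Fibronectin, the cross-linking enzyme lysyl oxidase and the protease inhibitor TIMP-1 belong to the same setting, since they build the matrix or protect it from breakdown.

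Neonatal rat ventricular myocytes (NRVMs), primary heart muscle cells from Sprague-Dawley pups, were transfected with a negative control siRNA (siNeg) or with an siRNA against Slc25a26 (siSlc25a26), the mitochondrial carrier for S-adenosylmethionine. From 12 h after transfection the cells were left untreated or received phenylephrine (PE), an alpha1-adrenergic agonist that makes cultured myocytes grow, for 36 h. This gave 4 groups of 3 libraries, 12 in all: siNeg without PE, siNeg with PE, siSlc25a26 without PE and siSlc25a26 with PE. The design text calls the 3 libraries of a group independent biological replicates. The comparisons ask what PE does to the 9 genes, what the siRNA does to them with and without PE, and whether PE acts alike under both siRNAs. The labels name 1 siRNA against Slc25a26 and no second sequence or rescue. The paper that names these data describes knockdown of another gene, Nap1l5, and other times of transfection and PE, so the siRNA, the groups and the times given here rest on the labels alone. By that paper's methods fibroblasts were removed on a Percoll gradient, so the cultures are enriched for myocytes but not pure. The libraries held 24770972 to 28709048 expected gene counts each. Levels are given as CPM, counts per 1e6 counts of the library, after TMM scaling (a correction of library size by a trimmed mean of gene ratios) over the 12 libraries, and 3 counts in a library come to 0.104 to 0.121 CPM.

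The siRNA target was looked at first. Slc25a26 (gene ID 362403) read 33.7, 32.2 and 29.4 CPM in the siNeg libraries and 15.7, 14.7 and 14.7 in the siSlc25a26 libraries without PE. It rose with PE to 114, 106 and 86.9 in siNeg and 101, 104 and 98.2 in the libraries labelled siSlc25a26 PE. Without PE the target was thus low in all 3 knockdown libraries, whereas with PE the 2 labels overlapped. The test used throughout is edgeR's quasi-likelihood F-test with p-values adjusted by the Benjamini-Hochberg method over all genes tested, and a gene is called higher or lower where the fold change exceeds 1.5 and the adjusted p is under 0.05. By that test Slc25a26 was lower without PE (log2 fold change -1.08, SE 0.08, adjusted p = 1.08e-05), with no call under PE (log2 fold change -0.0062, SE 0.101, adjusted p = 0.969). The siRNA label under PE is therefore not backed by the target's own RNA at the time of harvest, and the group is named by its label below.

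The PE treatment itself was plain in the hypertrophy genes. Nppa, the atrial natriuretic peptide, rose with PE in the siNeg libraries (log2 fold change 4.63, SE 0.138, adjusted p = 2.22e-06), and so did Nppb, the brain natriuretic peptide (5.37, adjusted p = 2.05e-05), and Acta1, skeletal alpha-actin (3.18, adjusted p = 5.13e-05). They rose with PE in siSlc25a26 too, Nppa by 4.51, adjusted p = 1.99e-07, Nppb by 5.32, adjusted p = 6.5e-08 and Acta1 by 5.15, adjusted p = 5.41e-07. With the siSlc25a26 label Nppa (1.14, adjusted p = 0.000562) and Nppb (1.97, adjusted p = 8.73e-05) were higher without PE, and under PE so were Nppa (1.02, adjusted p = 0.000259), Nppb (1.91, adjusted p = 0.000493) and Acta1 (1.44, adjusted p = 0.0012). The difference between the PE effects under the 2 siRNAs, defined below, was called for Acta1 (1.95, adjusted p = 0.00488) and not for Nppa (-0.14, adjusted p = 0.741) or Nppb (-0.071, adjusted p = 0.927). Within the siNeg PE group replicate 3 stood below replicates 1 and 2: Nppb read 662, 694 and 314 CPM and Acta1 3239, 2569 and 1599 CPM in replicates 1, 2 and 3. Members' results that rest on this library are given with and without it.

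All 9 genes passed the filter on low counts in every comparison. PE in the siNeg libraries raised 1 member, Timp1, and lowered 3, Tnc, Fn1 and Lox, where 12.4% of the 13719 genes tested were called higher and 8.24% lower. The siSlc25a26 libraries without PE had 0 members higher and 5 lower than siNeg (Postn, Tnc, Spp1, Thbs1 and Fn1), against 8.92% of 13829 genes higher and 7.2% lower. Under PE, 2 members were higher in the libraries labelled siSlc25a26 PE than in siNeg PE (Ctgf and Cyr61) and 2 lower (Postn and Spp1), against 7.71% and 8.1% of 13671 genes.

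PE in the siSlc25a26 libraries raised 3 members (Ctgf, Cyr61 and Timp1) and lowered 0, where 10.1% of 13776 genes were called higher and 10.4% lower. The difference between the PE effects, that is the PE change under the siSlc25a26 label less that under siNeg in a fit of all 12 libraries, was called higher for 6 of the 9 (Ctgf, Cyr61, Tnc, Thbs1, Fn1 and Lox) and lower for 0, against 2.16% and 3.34% of 14097 genes. Since the 9 were chosen with earlier results of these data known, their counts may not be independent of that choice. The median log2 fold change of the 9 genes was -0.48 for PE in siNeg, -0.74 for siSlc25a26 without PE, 0.29 under PE, -0.0083 for PE in siSlc25a26 and 0.77 for the difference, whereas over all genes tested it was 0.00016, 0.015, -0.0028, -0.0036 and -0.045. Without replicate 3 of siNeg PE, members called higher and lower numbered 1 and 3 for PE in siNeg, 2 and 2 for the siRNA label under PE, and 6 and 0 for the difference, as with it. Without replicate 3 of the libraries labelled siSlc25a26 PE the counts for the difference were 5 and 1, since Lox fell inside 1.5-fold and Postn was called lower. These comparisons share groups of libraries pair by pair, so one group's spread enters several of them and they are not independent of each other. The plot of fold changes sets the comparisons side by side for each gene.

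**Figure D1:**
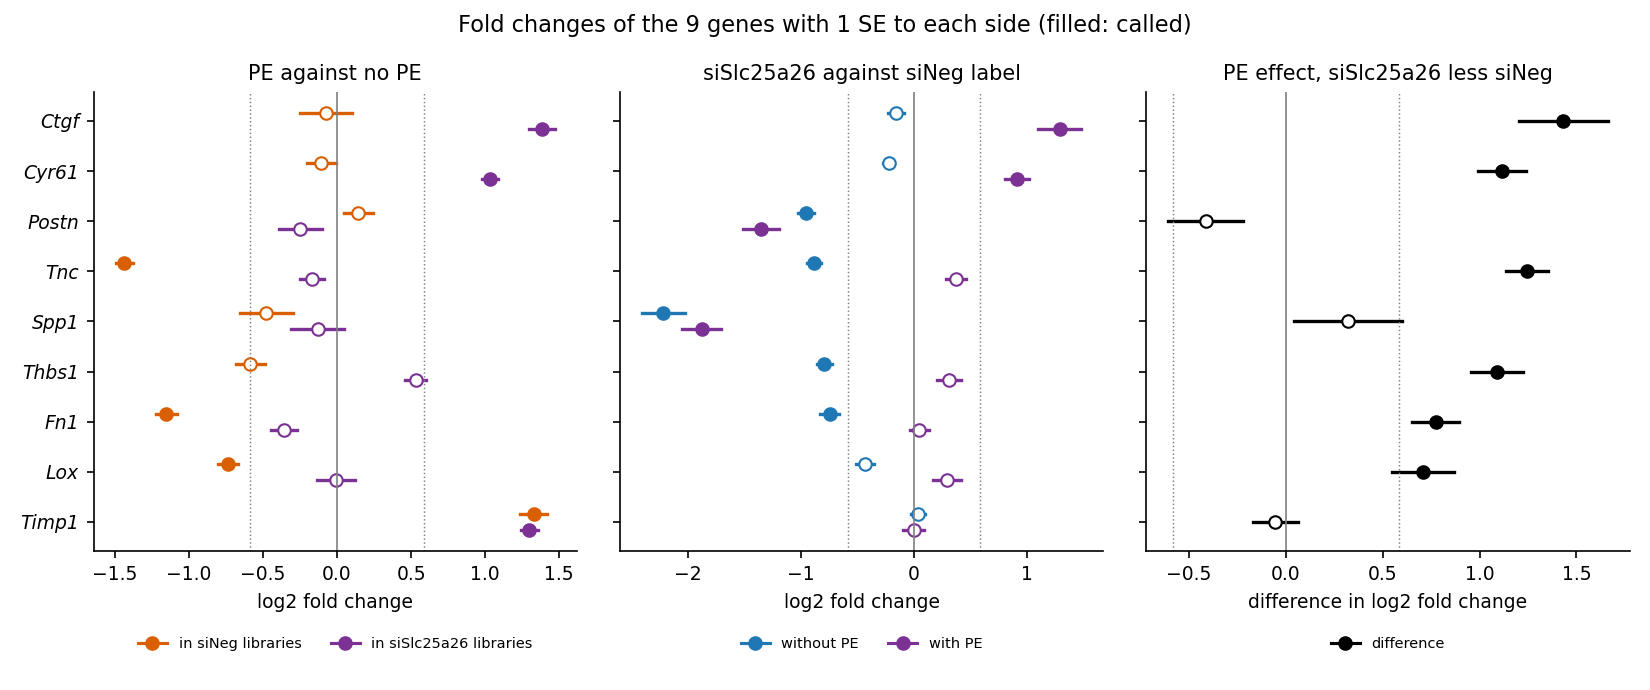
log2 fold change of each of the 9 genes with 1 SE to each side; left, PE against no PE in the siNeg and in the siSlc25a26 libraries; middle, the siSlc25a26 label against siNeg without and with PE; right, the difference between the PE effects. Filled points passed the call (fold above 1.5, adjusted p under 0.05), dotted lines mark a fold of 1.5, and in the right panel 6 of the 9 points are filled and lie above 0.

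Ctgf and Cyr61 encode CCN family proteins, secreted multi-domain factors that bind integrins and heparan sulfate. Their genes are well-known targets of the co-activators YAP and TAZ, which act through TEAD transcription factors. Because both moved together in these libraries, the 250 bases before each gene's start are shown here, from the RefSeq promoter table of build GRCr8, with those of Thbs1 and Timp1, the other members whose window holds the TEAD hexamer. Letters are in lower case, 5′ to 3′ on the gene's strand, and capitals mark the hexamer GGAATG or, on the other strand, its reverse complement CATTCC. Ctgf lies at chr1:22624615-22624864 on the minus strand, Cyr61 at chr2:237225690-237225939 on the minus strand, Thbs1 at chr3:125510000-125510249 on the plus strand and Timp1 at chrX:3771123-3771372 on the minus strand; each window ends at the last base before the annotated start of transcription.
Ctgf: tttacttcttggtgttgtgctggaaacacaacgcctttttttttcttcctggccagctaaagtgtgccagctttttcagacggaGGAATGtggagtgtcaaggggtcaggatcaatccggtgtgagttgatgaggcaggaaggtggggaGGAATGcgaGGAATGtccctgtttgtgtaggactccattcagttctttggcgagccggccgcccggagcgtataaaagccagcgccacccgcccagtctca
Cyr61: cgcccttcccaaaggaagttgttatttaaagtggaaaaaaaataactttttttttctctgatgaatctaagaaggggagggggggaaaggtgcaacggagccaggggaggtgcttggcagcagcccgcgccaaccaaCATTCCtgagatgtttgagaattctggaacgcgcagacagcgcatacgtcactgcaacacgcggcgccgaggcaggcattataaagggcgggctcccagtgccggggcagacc
Thbs1: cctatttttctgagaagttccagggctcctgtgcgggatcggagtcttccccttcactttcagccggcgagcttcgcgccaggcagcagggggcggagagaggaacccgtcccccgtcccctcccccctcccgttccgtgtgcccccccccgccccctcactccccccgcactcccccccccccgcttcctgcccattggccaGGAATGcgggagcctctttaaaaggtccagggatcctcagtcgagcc
Timp1: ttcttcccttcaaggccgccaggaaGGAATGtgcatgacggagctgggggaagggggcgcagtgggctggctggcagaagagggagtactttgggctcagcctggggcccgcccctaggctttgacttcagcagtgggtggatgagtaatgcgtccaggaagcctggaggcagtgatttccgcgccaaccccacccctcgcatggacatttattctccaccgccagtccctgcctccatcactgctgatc

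The Ctgf window holds 3 hexamers, which begin 166, 101 and 92 bases before the gene start, and the Cyr61 window holds 1 on the other strand, which begins 113 bases before it. Thbs1 has 1 at 47 bases and Timp1 has 1 at 225 bases, whereas the windows of Postn, Tnc and Spp1 hold none; Fn1 and Lox are not in the table, so 7 of the 9 members were matched. Of 33469 RefSeq promoter windows of the same length, 12.1% hold at least 1 hexamer on either strand and 0.902% hold 2 or more. The TATA box letters TATAAA occur in 12.9% of the windows. They were found close to the start of Ctgf (31 bases), Cyr61 (34) and Postn (44), and far from it in Tnc (208) and Spp1 (204). Other forms of the TATA box were not searched, and the Tnc window also holds TATATAAG nearer its start. An AP-1 motif (TGANTCA, in 6.34% of windows) and the CArG box of serum response factor (in 1.5%) were searched on both strands as well and found in none of the 7 windows; none of these motifs overlapped another in them. A match to these letters describes the sequence and says nothing of binding in these cells.

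**Figure D2:**
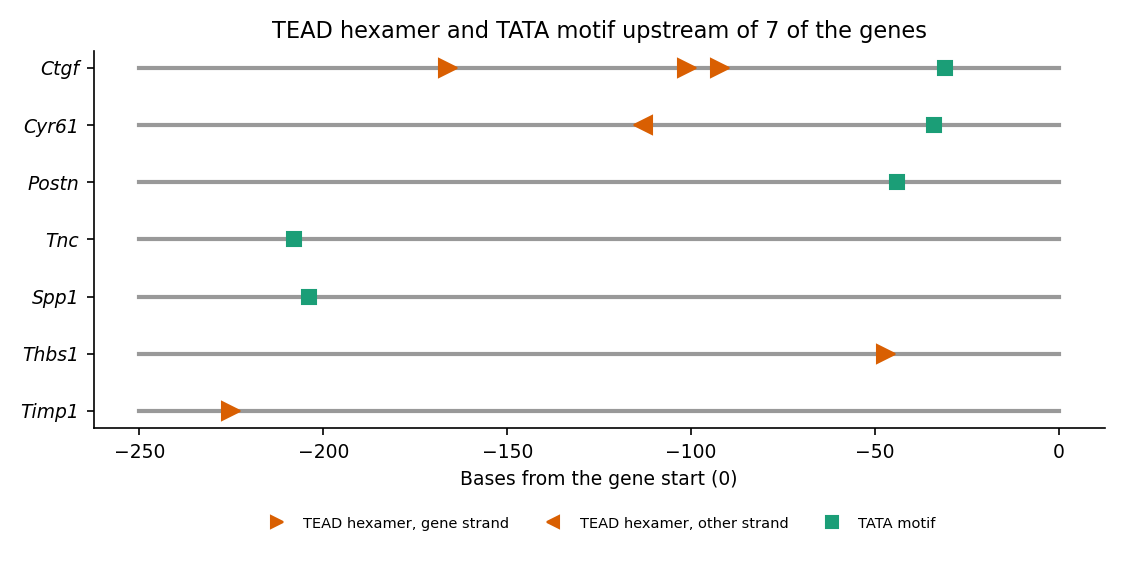
Place of the TEAD hexamer (triangles, pointing along the strand that carries it) and of the TATA motif (squares) in the 250 bases before the start of 7 of the genes; the x axis counts bases from the gene start at 0. Ctgf has 3 hexamers, Cyr61, Thbs1 and Timp1 have 1 each, and Postn, Tnc and Spp1 have none.

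Ctgf (gene ID 64032), connective tissue growth factor, read 459, 439.7 and 479 CPM in the siNeg libraries and 420.4, 368 and 446 CPM in the siSlc25a26 libraries without PE. With PE it read 510.1, 503 and 295 CPM in siNeg and 973, 1040.3 and 1168 in the libraries labelled siSlc25a26 PE. Those last 3 libraries lay above every other library, at a mean of 1061 ± 99.2 CPM (SD, n = 3), while the remaining groups overlapped and replicate 3 of siNeg PE was the lowest of all 12. Ctgf was 2.45 times as high in them as in siNeg PE (log2 fold change 1.29, SE 0.192, adjusted p = 0.000885) and rose with PE within the siSlc25a26 label (log2 fold change 1.38, SE 0.087, adjusted p = 2.98e-06). In siNeg no PE change was called (-0.074, adjusted p = 0.75), and the difference between the PE effects passed the call (log2 fold change 1.43, SE 0.229, adjusted p = 0.00225). Without replicate 3 of siNeg PE the PE value in siNeg turned from below to above 0 (0.14, adjusted p = 0.106), the siRNA comparison under PE was 1.05 (adjusted p = 0.000165) and the difference 1.23 (adjusted p = 0.000209), both still called.

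Cyr61 (gene ID 83476), cysteine-rich angiogenic inducer 61, showed the same order of groups at a lower CPM. It read 204, 192 and 197 CPM in siNeg, 165, 167 and 176 CPM in siSlc25a26, 201, 197 and 153 CPM in siNeg PE and 332, 336 and 359 in the libraries labelled siSlc25a26 PE. The last group again stood clear of all others, and the siSlc25a26 libraries without PE lay below siNeg with no overlap. Cyr61 was 1.88 times as high in the libraries labelled siSlc25a26 PE as in siNeg PE (log2 fold change 0.91, SE 0.107, adjusted p = 0.000247) and rose with PE within that label (1.03, adjusted p = 8.83e-07). The lower values of siSlc25a26 without PE had an adjusted p of 0.00621 but a log2 fold change of -0.22, inside the limit of 1.5-fold. The PE effects differed by 1.12 on the log2 scale (adjusted p = 0.000278); without replicate 3 of siNeg PE this was 1.01 (adjusted p = 5.61e-05), and the siRNA comparison under PE was 0.77 (adjusted p = 0.000136).

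**Figure D3:**
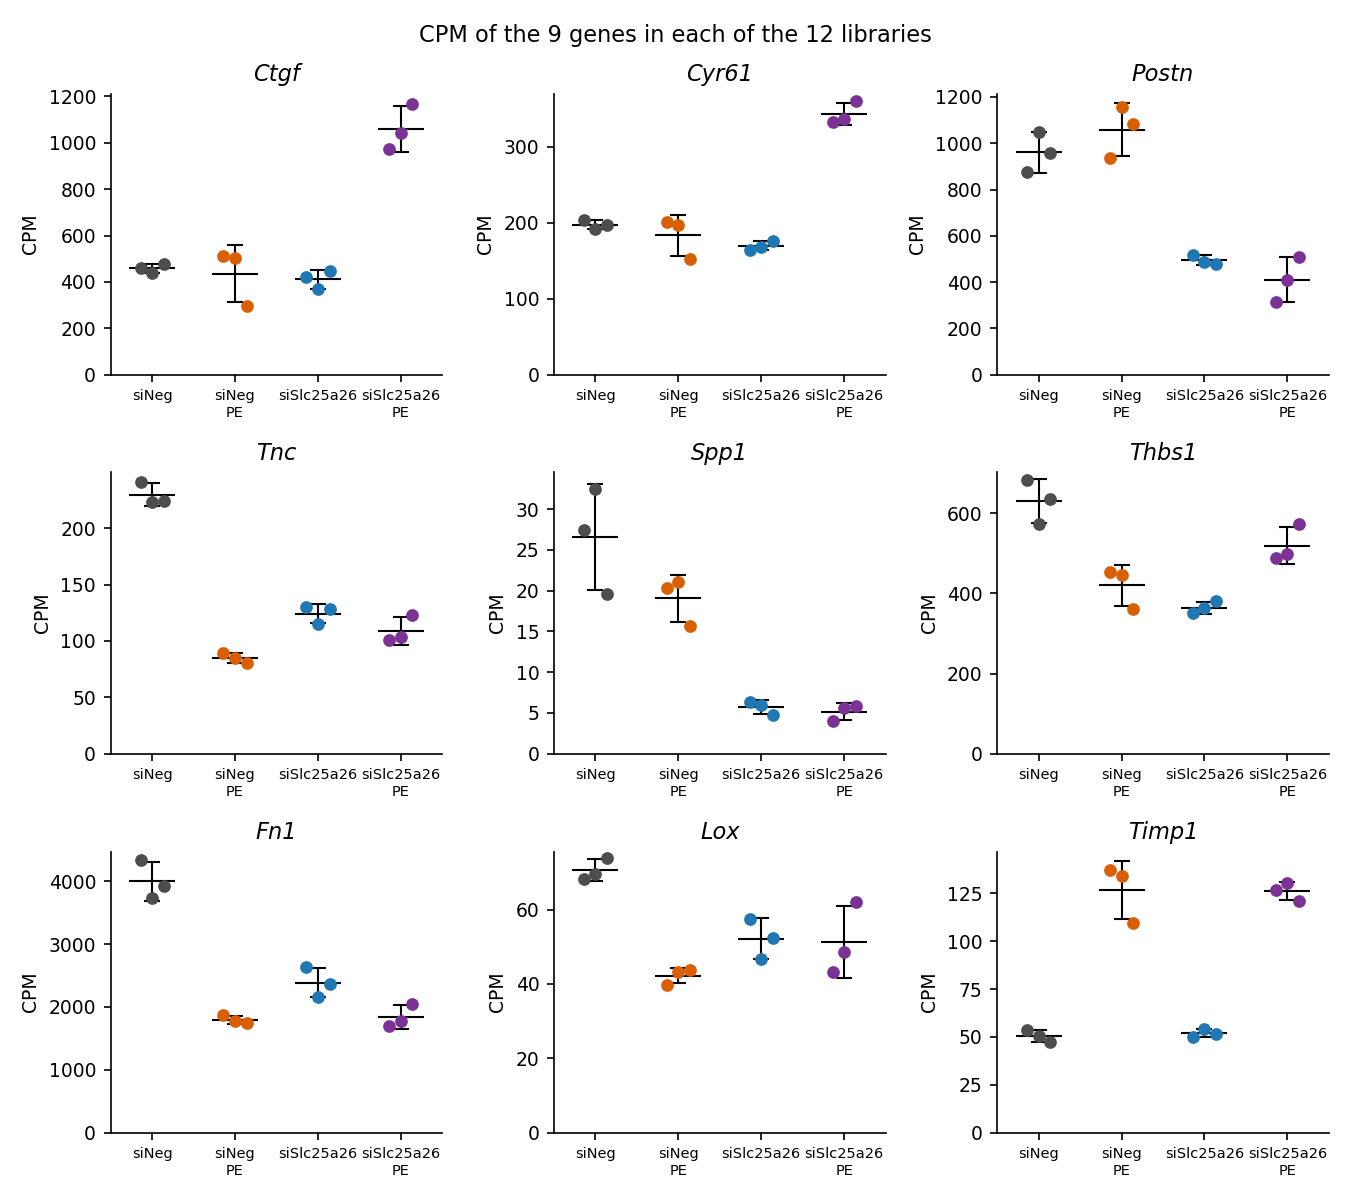
CPM (linear axis from 0) of each of the 9 genes in the 12 libraries; points are libraries, horizontal marks the group means and bars 1 SD (n = 3). Ctgf and Cyr61 are highest in the libraries labelled siSlc25a26 PE, Postn and Spp1 are low in both siSlc25a26 groups, Tnc and Fn1 are highest in siNeg without PE, and Timp1 is high in both PE groups.

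Postn and Spp1 followed the siRNA label with PE and without it. Postn (gene ID 361945) encodes periostin, a protein that helps collagen fibrils form and marks activated cardiac fibroblasts. It read 874, 1049 and 959 CPM in siNeg and 935, 1158 and 1083 CPM in siNeg PE, against 519, 489 and 477 CPM in siSlc25a26 and 314, 411 and 508 in the libraries labelled siSlc25a26 PE. All 6 libraries with the siSlc25a26 label lay below all 6 with the siNeg label, and within each label the 2 PE states overlapped. Postn was lower by the test without PE (log2 fold change -0.96, SE 0.072, adjusted p = 1.2e-05) and under PE (log2 fold change -1.35, SE 0.160, adjusted p = 0.000254). No PE change was called in siNeg (0.14, adjusted p = 0.246) or in siSlc25a26 (-0.25, adjusted p = 0.177), nor a difference between them (-0.41, adjusted p = 0.195). Replicate 3 of the libraries labelled siSlc25a26 PE held the highest Postn of its group; without it the difference was -0.59 (adjusted p = 0.0414), which passes the call.

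Spp1 (gene ID 25353) encodes osteopontin, a secreted phosphoprotein bound by integrins and CD44 and made by macrophages and stressed myocardium. Its counts were the lowest of the 9: 27.5, 32.5 and 19.6 CPM in siNeg, 20.3, 21.1 and 15.7 CPM in siNeg PE, 6.40, 5.97 and 4.76 CPM in siSlc25a26 and 3.98, 5.59 and 5.88 in the libraries labelled siSlc25a26 PE. Here too the labels did not overlap, with every siNeg library above 15 CPM and every siSlc25a26 library below 7 CPM. The fall without PE was the largest of any member in the 5 comparisons (log2 fold change -2.21, SE 0.190, adjusted p = 2.84e-05), and under PE Spp1 was 3.67 times lower (log2 fold change -1.88, SE 0.175, adjusted p = 6.2e-05). PE within siNeg left 3 values that overlapped those without PE (-0.48, adjusted p = 0.0576), and replicate 3 was the lowest of both siNeg groups; without replicate 3 of siNeg this comparison passed the call (-0.65, adjusted p = 0.00508). For PE in siSlc25a26 the value was -0.13, adjusted p = 0.564.

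Tnc and Thbs1 had lower CPM with PE alone and with the siRNA alone than in untreated siNeg cells. With both, no further fall was called for Tnc, whereas Thbs1 read higher than with either alone, inside 1.5-fold and with no overlap. Tnc (gene ID 116640) encodes tenascin-C, a large hexameric glycoprotein that loosens cell adhesion and appears at sites of tissue remodelling. It read 241, 223 and 224 CPM in siNeg, 89.1, 84.8 and 80.3 CPM in siNeg PE, 129.9, 115 and 128 CPM in siSlc25a26 and 101, 103 and 123 in the libraries labelled siSlc25a26 PE. The siNeg libraries were the highest and the siNeg PE libraries the lowest, each apart from the rest, and the siSlc25a26 groups overlapped in between. Tnc fell with PE in siNeg (log2 fold change -1.44, SE 0.059, adjusted p = 3.89e-06) and was lower in siSlc25a26 without PE (log2 fold change -0.89, SE 0.062, adjusted p = 7.33e-06). Within siSlc25a26 PE gave -0.17, adjusted p = 0.122, and the difference between the PE effects was 1.24 (SE 0.108, adjusted p = 0.000105). Under PE the siSlc25a26 label was above siNeg in 3 of 3 libraries but inside 1.5-fold (0.37, adjusted p = 0.0103).

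Thbs1 (gene ID 445442) encodes thrombospondin-1, a trimeric matricellular protein that activates latent TGF-beta and binds CD36 and CD47. It read 682, 574 and 636 CPM in siNeg, 454, 446 and 362 CPM in siNeg PE, 349.9, 363 and 380.3 CPM in siSlc25a26 and 487, 497 and 573 in the libraries labelled siSlc25a26 PE. PE thus went with lower values in siNeg and with higher values in siSlc25a26, and neither pair of groups overlapped. In siNeg the fold as a decrease was 1.499, just inside the limit (log2 fold change -0.58, SE 0.098, adjusted p = 0.00187), and in siSlc25a26 the rise was inside it too (log2 fold change 0.53, SE 0.07, adjusted p = 0.00025). The difference between these 2 effects was called (log2 fold change 1.09, SE 0.132, adjusted p = 0.000466), as was the lower level in siSlc25a26 without PE (log2 fold change -0.79, SE 0.069, adjusted p = 3.04e-05). The PE comparison in siNeg passed the call without replicate 2 of siNeg (-0.65, adjusted p = 0.0041), and without replicate 3 of siNeg PE it was -0.49 (adjusted p = 0.00287). Under PE the value for the siRNA label was 0.31, adjusted p = 0.041, and 0.19 (adjusted p = 0.105) without that library.

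Fn1 and Lox, which build the matrix, were highest in untreated siNeg cells. Fn1 (gene ID 25661), fibronectin, assembles into fibrils on which collagen and other matrix proteins are laid down. It had the highest CPM of the 9, with 4339, 3728 and 3928 in siNeg, 1866, 1777 and 1747 in siNeg PE, 2633, 2162 and 2369.5 in siSlc25a26 and 1701, 1775 and 2049.8 in the libraries labelled siSlc25a26 PE. The siNeg libraries stood above the siSlc25a26 libraries, these stood above both PE groups, and the 2 PE groups overlapped. Fn1 fell with PE in siNeg (log2 fold change -1.15, SE 0.071, adjusted p = 1.87e-05) and was lower in siSlc25a26 without PE (log2 fold change -0.74, SE 0.084, adjusted p = 0.000153). Within siSlc25a26 the PE value was inside 1.5-fold (-0.36, adjusted p = 0.00834), so that the PE effects differed by 0.77 (SE 0.121, adjusted p = 0.00207). Under PE the 2 labels gave 0.047, adjusted p = 0.692.

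Lox (gene ID 24914), lysyl oxidase, is the copper enzyme that starts the cross-linking of collagen and elastin. It read 68.3, 69.5 and 73.9 CPM in siNeg, 39.9, 43.3 and 43.7 CPM in siNeg PE, 57.6, 46.6 and 52.4 CPM in siSlc25a26 and 43.1, 48.6 and 61.9 in the libraries labelled siSlc25a26 PE. The siNeg libraries were above all others, the siNeg PE libraries sat at the low end, and the libraries labelled siSlc25a26 PE spread widely, with replicate 3 above all 3 siSlc25a26 libraries and replicate 1 below them. Lox fell with PE in siNeg (log2 fold change -0.74, SE 0.068, adjusted p = 0.000113), while in siSlc25a26 the PE value was -0.0083, adjusted p = 0.962. Without PE the lower value of siSlc25a26 was inside 1.5-fold (-0.43, adjusted p = 0.00213), and under PE the labels overlapped (0.29, adjusted p = 0.0938). The difference between the PE effects was called (log2 fold change 0.71, SE 0.159, adjusted p = 0.0142). Without replicate 3 of the libraries labelled siSlc25a26 PE it was 0.55 (adjusted p = 0.0171), below the fold limit. On log2(FPKM + 1) the Lox difference was 0.48 by limma (adjusted p = 0.0716).

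Timp1 followed PE alone. Timp1 (gene ID 116510) encodes tissue inhibitor of metalloproteinases 1, a secreted protein that blocks matrix metalloproteinases. It read 53.6, 50.7 and 47.5 CPM in siNeg and 50.0, 54.4 and 51.6 CPM in siSlc25a26, and with PE 137, 134 and 109 CPM in siNeg and 127, 131 and 121 in the libraries labelled siSlc25a26 PE. All 6 PE libraries were at least 109 CPM and all 6 libraries without PE at most 54.4 CPM, and at either PE state the 2 siRNA labels overlapped. The PE rise was 2.51-fold in siNeg (log2 fold change 1.33, SE 0.091, adjusted p = 2.81e-05) and 2.46-fold in siSlc25a26 (log2 fold change 1.30, SE 0.057, adjusted p = 3.86e-07). The siRNA label gave 0.040, adjusted p = 0.636 without PE and 0.00070, adjusted p = 0.996 under PE, and the PE effects differed by -0.055 (SE 0.116, adjusted p = 0.803).

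Levels of different genes can be set side by side only per length, for which the deposited FPKM values (fragments divided by transcript length and by sequencing depth) serve. In siNeg the order of mean FPKM was Fn1 (504 ± 39.4, SD, n = 3), Postn (315 ± 28.1), Ctgf (206 ± 10.2), Thbs1 (138 ± 12.9), Cyr61 (119.7 ± 3.83), Timp1 (73.7 ± 3.71), Tnc (37.1 ± 1.58), Spp1 (19.0 ± 4.53) and Lox (14.9 ± 0.702). Neighbours in this order kept apart in all 3 libraries except Spp1 and Lox, whose ranges overlapped. In the libraries labelled siSlc25a26 PE Ctgf came first at 444 ± 45.4 FPKM, ahead of Fn1 at 216 ± 23.1, Cyr61 at 194 ± 9.69, Timp1 at 168 ± 6.27, Postn at 127 ± 31.2 and Thbs1 at 105 ± 10.2. There the FPKM ranges of Fn1 and Cyr61 overlapped, as did those of Postn and Thbs1, and Spp1 was last at 3.44 ± 0.724.

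Among all genes, Ctgf ranked 447 by mean FPKM in siNeg, 480 in siNeg PE, 488 in siSlc25a26 and 216 in the libraries labelled siSlc25a26 PE. Fn1 went from rank 207 in siNeg to 421 in siNeg PE, 302 in siSlc25a26 and 411 in the libraries labelled siSlc25a26 PE, and Postn from 308 and 291 in the siNeg groups to 554 and 702. Spp1 moved from rank 4307 in siNeg to 9136 in siSlc25a26. The 9 genes together took 0.642% to 0.704% of all gene counts in the siNeg libraries, 0.39% to 0.432% in siNeg PE, 0.401% to 0.459% in siSlc25a26 and 0.381% to 0.473% in the libraries labelled siSlc25a26 PE, and Fn1 had the largest counts of the 9 in every library. The plot of FPKM by group shows these orders on a log axis.

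**Figure D4:**
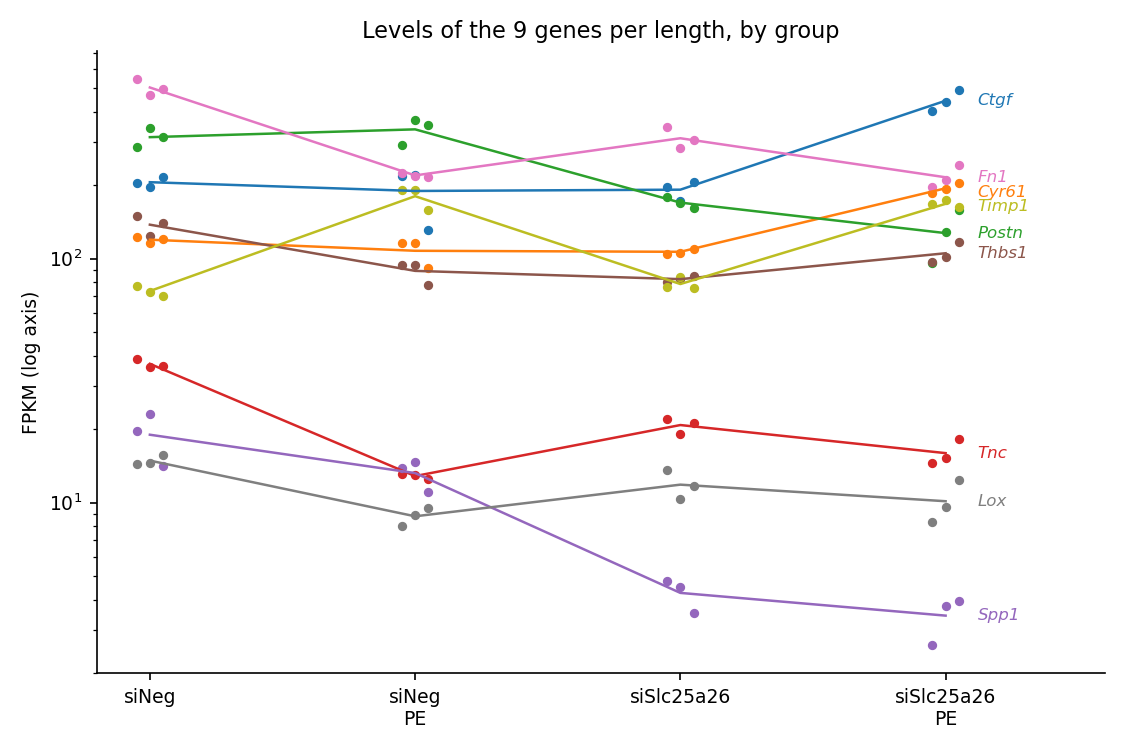
FPKM (log axis) of the 9 genes by group; points are libraries and lines join group means. Fn1 is first in siNeg, Postn in siNeg PE, Fn1 in siSlc25a26 and Ctgf in the libraries labelled siSlc25a26 PE, and Spp1 falls to the last place in both siSlc25a26 groups.

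Likeness of pattern was measured as the root mean square difference between 2 genes' log2 CPM over the 12 libraries, each centred on its own mean, among 14096 genes; 0 is the same pattern. Ctgf was most like Cspg4 (0.194) and next Cyr61 (0.205), where the median over all genes was 0.668. Cyr61 was most like Actn1 (0.0964) and Ctnna1 (0.109), with Ctgf at place 45. Tnc lay close to St8sia2 (0.130) and to Fn1 (0.134), and Fn1 lay close to P4ha2 (0.104), with Tnc at place 8. Tnc and Fn1, and Ctgf and Cyr61, were thus the closest pairs of members. Postn was nearest to Nrk (0.139) and Adam10 (0.150), and Spp1 to Apoe (0.165) and Efemp1 (0.193). The member nearest to Spp1 was Postn (0.524) at place 65, where the median over all genes was 1.09. Lox was nearest to Cav2 (0.105) and Pdgfrb (0.126), Thbs1 to Tril (0.120) and Scara5 (0.139), and Timp1 to Sfrp1 (0.115) and Avpi1 (0.134). For Timp1 the nearest member was Cyr61 (0.546) at place 2647, where the median over all genes was 0.710.

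The relatives of the 9 genes were counted from lists of names, each read against the shares and medians of all genes given above. Of the other CCN genes, Wisp3 was at or near 0 in all libraries and was not tested. PE in siNeg lowered 2 of the 3 tested (median -0.90), Wisp2 (-2.31, adjusted p = 3.89e-06) and Nov (-0.90, adjusted p = 0.000231). In siSlc25a26 without PE, Wisp1 was higher (0.61, adjusted p = 0.000407) and Nov and Wisp2 lower. Under PE, where Ctgf and Cyr61 were higher with the siSlc25a26 label, 0 of these 3 were called (median -0.27). There were 15 other matricellular genes in the table: thrombospondins, SPARC and SMOC proteins, tenascins, fibulins and Tgfbi. PE in siNeg raised 1 and lowered 5 of 13 tested (median -0.49). Without PE, siSlc25a26 had 1 higher and 7 lower of 13 (median -0.98), and under PE the siSlc25a26 label had 1 higher and 6 lower of 13 (median -0.66). Smoc2 fell with PE in siNeg (-2.01, adjusted p = 3.89e-06). Fbln1 (-1.29, adjusted p = 3.59e-05) and Sparcl1 (-1.27, adjusted p = 4.84e-05) were lower in siSlc25a26 without PE, while Tgfbi was higher in it without PE (0.86, adjusted p = 1.87e-06) and under PE (0.64, adjusted p = 0.000107). For the difference between the PE effects 0 of 14 were called by edgeR, with a median of 0.055.

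Genes that assemble and cross-link matrix, Lox relatives, lysyl hydroxylases, fibrillins and elastin among them, had 1 higher and 3 lower of 14 for PE in siNeg (median -0.48) and 1 higher and 6 lower for siSlc25a26 without PE (median -0.46). Tgm2, transglutaminase 2, rose with PE (1.67, adjusted p = 3.89e-06) and Eln, elastin, fell (-1.77, adjusted p = 6.5e-06), while Fbn1, fibrillin-1, was lower in siSlc25a26 without PE (-1.54, adjusted p = 7.11e-07) and under PE (-0.99, adjusted p = 2.46e-05). Of the matrix proteases and their inhibitors, 3 rose and 8 fell of 26 with PE in siNeg (median -0.30), and 1 was higher and 13 lower in siSlc25a26 without PE (median -0.58); under PE the counts were 2 and 6 (median -0.22). Adamts2, which trims procollagen, was lower in siSlc25a26 (-1.49, adjusted p = 1.47e-06). The difference between the PE effects was called higher for 1 of 14 assembly genes, Fbn2 (0.60, adjusted p = 0.0243), and 4 of 26 proteases and inhibitors.

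Among 24 matrix receptors, integrins, syndecans, CD36, CD44, CD47 and LRP1, PE raised 6 and lowered 2 in siNeg (median 0.091) and raised 8 and lowered 0 in siSlc25a26 (median 0.23). Itga9, a receptor subunit for tenascin-C and osteopontin, rose with PE under both labels (1.31, adjusted p = 2.37e-05 in siNeg and 2.17, adjusted p = 1.36e-07 in siSlc25a26). Cd47, a thrombospondin-1 receptor, was higher in siSlc25a26 without PE (1.08, adjusted p = 5.02e-07) and under PE (1.09, adjusted p = 1.42e-06), and Itgb3 was lower without PE (-1.06, adjusted p = 2.98e-06). The siRNA counts were 3 higher and 4 lower without PE (median -0.078) and 5 higher and 1 lower under PE (median 0.29). The difference between the PE effects was called higher for 5, among them Itga6 (0.94, adjusted p = 0.000998).

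The factors known to act on Ctgf and Cyr61 were looked at next. Of 8 YAP and TEAD regulators, 0 were called for the siRNA label without PE (median 0.0028), 0 under PE (median 0.23) and 0 for the difference between the PE effects (median 0.063), by the edgeR call with its fold limit. Inside 1.5-fold, the adjusted p of 3 of the 8 was under 0.05 without PE and of 5 under PE, all above 0. With no fold limit, 3223 genes above 0 and 2998 below it, of 13829, had such an adjusted p without PE. Under PE these numbered 2744 and 2744 of 13671. PE in siNeg raised 1, Tead4 (0.77, adjusted p = 0.00191), and lowered 2, Vgll3 (-0.61, adjusted p = 0.000353) and Tead2 (-0.59, adjusted p = 0.00106). PE in siSlc25a26 raised 2, Tead4 (0.95, adjusted p = 0.000569) and Tead1 (0.61, adjusted p = 0.000777), and lowered 1, Vgll4 (-0.63, adjusted p = 0.00151), with a median of -0.15. Of 20 other YAP targets in the table, 4 rose and 3 fell with PE in siNeg (median -0.078), led by Ankrd1 (2.70, adjusted p = 7.87e-06), a stretch-responsive myocyte protein. PE in siSlc25a26 raised 5 and lowered 2 of 19 tested (median 0.14). Under PE 0 of 19 tested were higher and 2 lower with the siSlc25a26 label (median 0.22), Nt5e (-0.75, adjusted p = 0.000773) and Ccdc80 (-0.59, adjusted p = 0.000159), where 7.71% of all genes were higher and 8.1% lower. Inside 1.5-fold, 7 of the 19 were above 0 at an adjusted p under 0.05 in that comparison. Among all 13671 genes, 2744 were above 0 at that adjusted p with no fold limit. Without PE 2 were higher and 3 lower of 20 (median 0.086), and for the difference 1 was higher, Myof (0.73, adjusted p = 0.00143), and 1 lower, Nuak2 (-0.98, adjusted p = 0.00101).

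Of 21 TGF-beta pathway genes, 2 rose and 4 fell with PE in siNeg (median -0.28), 1 was higher and 3 lower in siSlc25a26 without PE (median 0.030), and 3 were higher and 2 lower with that label under PE (median 0.014). Tgfb2, a TGF-beta ligand, stood highest in the same group as Ctgf: 57.1, 58.8 and 65.7 CPM in siNeg, 99.4, 110.4 and 88.8 in siNeg PE, 67.5, 65.1 and 66.6 in siSlc25a26 and 168, 203 and 248 in the libraries labelled siSlc25a26 PE. It was higher in the last group than in siNeg PE (log2 fold change 1.06, SE 0.141, adjusted p = 0.000465), with no overlap. Ltbp2 (-1.55, adjusted p = 1.18e-06) and Ltbp4 (-1.67, adjusted p = 4.75e-07), of the latent TGF-beta binding protein family, were lower in siSlc25a26 without PE. The difference between the PE effects was called higher for 3 of the 21, Tgfb3 (1.28, adjusted p = 0.000178), Ltbp2 (1.27, adjusted p = 0.000153) and Tgfb2 (0.91, adjusted p = 0.00502), and lower for 1, Tgfbr3 (-0.85, adjusted p = 0.0019). Of 9 genes of serum response factor, its MRTF co-activators and their cytoskeletal targets, 0 rose and 1 fell with PE in siNeg (Flna, -1.10, adjusted p = 1.99e-05), whereas 3 rose and 0 fell with PE in siSlc25a26 (median 0.25). The siRNA label had 0 higher and 3 lower without PE (median -0.19) and 0 called under PE (median 0.17), and the median for PE in siNeg was -0.33. For the difference between the PE effects 3 were called higher (median 0.43).

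Fibroblasts, mural cells and macrophages also make these proteins, so marker genes of the cell types a culture of this kind may hold were summed in FPKM. In bulk RNA, fewer cells of a type and less RNA per cell cannot be told apart. The 12 cardiomyocyte markers summed to 20112, 21456 and 20005 in siNeg, 24681, 23545 and 23206 in siNeg PE, 17699, 18396 and 19458 in siSlc25a26 and 23620.4, 22415 and 21298 in the libraries labelled siSlc25a26 PE. With Tnnt2 the most abundant of them, these markers were present at the highest sums of any cell type in all 12 libraries. Of these 12, 4 rose and 1 fell with PE in siNeg, 0 were higher and 2 lower in siSlc25a26 without PE, and 0 higher and 1 lower under PE (medians 0.37, -0.14 and 0.034). The 11 fibroblast markers, led by Col1a1 and none at 0, summed to 5893, 5379 and 5472 in siNeg, 2947, 2907 and 2936 in siNeg PE, 3603, 3334 and 3414 in siSlc25a26 and 2090.3, 2119 and 2222 in the libraries labelled siSlc25a26 PE. Their sum was thus highest in siNeg and lowest in the libraries labelled siSlc25a26 PE, with no overlap of groups. Of the 11, 6 fell with PE in siNeg and 5 were not called, 7 were lower in siSlc25a26 without PE and 4 lower and 1 higher under PE (medians -0.65, -0.71 and -0.44). PE in siSlc25a26 lowered 1 and raised 0 of the 11 (median -0.22), so the fall of the sum there was not shared by most markers at the call. The summed FPKM are not TMM-scaled. Tnc, Fn1, Lox and Thbs1 were likewise highest in siNeg, while Ctgf, Cyr61, Tnc and Thbs1 read higher in the libraries labelled siSlc25a26 PE than in siNeg PE with no overlap, Tnc and Thbs1 inside 1.5-fold. The part of fibroblast RNA in these results was not tested.

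The 10 mural markers, led by Myl9, summed to 3815, 3697 and 3515 in siNeg, 3098, 2844 and 2544 in siNeg PE, 1934, 1827 and 2056 in siSlc25a26 and 2487, 2414 and 2339 in the libraries labelled siSlc25a26 PE. Calls on them were 2 higher and 4 lower for PE in siNeg, 0 and 5 for siSlc25a26 without PE, and 1 and 3 under PE (medians -0.23, -0.75 and -0.083). The sum was lowest in siSlc25a26 without PE, the group in which Thbs1 had its lowest mean. Cspg4 and Pdgfrb, named above as the gene nearest to Ctgf and the next after Cav2 to Lox, are on this list. The 11 macrophage markers, led by Lyz2 and with Cd163 at no more than 3 counts in every library, summed to 109, 112 and 92.0 in siNeg, 53.2, 56.9 and 50.2 in siNeg PE, 51.3, 60.7 and 55.1 in siSlc25a26 and 31.7, 38.4 and 33.7 in the libraries labelled siSlc25a26 PE. Of 8 tested, 5 fell with PE in siNeg and 5 were lower in siSlc25a26 without PE (medians -0.84 and -0.84), and under PE 1 was higher and 2 lower (median 0.10). Spp1, a macrophage product, averaged 26.5 CPM in siNeg, 19.0 in siNeg PE, 5.71 in siSlc25a26 and 5.15 in the group labelled siSlc25a26 PE. The 8 endothelial markers, led by Tek, summed to no more than 8.13 FPKM in any library. There were 0 higher and 2 lower of 7 tested for PE in siNeg and 0 and 1 for siSlc25a26 without PE (medians -0.19 and -0.082). The 6 epicardial markers, led by Upk3b, summed to 21.6, 19.2 and 14.7 in siNeg, 17.8, 21.3 and 17.8 in siNeg PE, 14.1, 11.4 and 11.8 in siSlc25a26 and 9.29, 10.3 and 11.6 in the libraries labelled siSlc25a26 PE. PE in siNeg raised 1 of these 6 and lowered 0 (median -0.14), and siSlc25a26 without PE had 1 higher and 3 lower (median -0.41). Under PE 0 of 6 were higher and 4 lower with the siSlc25a26 label (median -1.23). For the difference between the PE effects, 4 of 10 mural markers (median 0.53) and 2 of 9 macrophage markers (median 0.60) were called higher and 0 lower. Of the other marker lists in that comparison, 0 of 12 cardiomyocyte (median 0.088), 0 of 11 fibroblast (median 0.19) and 0 of 7 endothelial markers (median 0.14) were called, and 1 of 6 epicardial markers was lower (median -0.21). The part of any of these cell types in the results was not tested.

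One further difference ran with the siRNA label. The 10 interferon-induced genes, led by Irf7, summed to 75.9, 85.9 and 69.5 FPKM in siNeg and 54.7, 47.6 and 49.3 in siNeg PE, but 4643, 4317 and 4380.0 in siSlc25a26 and 2484, 2472 and 2204 in the libraries labelled siSlc25a26 PE. All 6 libraries of the siSlc25a26 label thus lay far above all 6 of siNeg. Of these genes, 9 of 9 tested were higher without PE (median 6.69) and 9 of 10 under PE (median 6.49). The label therefore separates the libraries by interferon genes also where Slc25a26 itself did not differ. The part of the interferon difference in the results for Postn and Spp1 was not tested.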

How the data were processed

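RNA of 12 cultures (4 groups of 3 replicates) was sequenced at BGI. For each library the authors deposited a gene table of expected counts and FPKM; the submitters' processing notes name HISAT, Bowtie2 and Rnor_6.0, and strand use in counting is not given in the sources used here. The design assumed counts; the files hold expected counts, 20.8% to 21.9% of them not whole, which were rounded. Of 18469 genes, 16962 (91.8%) carry an identifier found in RefSeq.

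The whole table was fitted with edgeR 4.0.16 in R 4.3.3 (TMM, filterByExpr, quasi-likelihood F-test), separately for the 6 libraries of each pair of groups and over all 12 for the difference between PE effects. Calls need a fold above 1.5 and a Benjamini-Hochberg adjusted p under 0.05. Alternatives used DESeq2 1.42.0, limma 3.58.1 (voom, or log2 FPKM plus 1 or 0.1 after a minimum of 0.5 FPKM in 3 libraries), other filters, a replicate block, and each library left out in turn. The edgeR, DESeq2 and voom fits of PE in siNeg and the edgeR fit of the difference between PE effects were tested on simulated data. The other settings and measures were not.

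The 9 members and the lists were chosen with earlier results of these data known. Genes named besides the members, Slc25a26, Nppa, Nppb and Acta1 are, per list and comparison, up to 2 called genes with the largest rise and 2 with the largest fall at a mean of at least 1 CPM, the most abundant marker of each cell type or interferon list, markers near 0, and the 2 genes nearest to each member. Wisp3 was named after its values were seen; some genes that the rule takes are not reported here. At the depth reached, 3 counts in a library equal 0.104 to 0.121 CPM, and every member lay above this in every library.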

Additional observations from a re-analysis of the deposited data

Results flagged for a closer look

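A difference between groups marked 6 results: the PE effect under the siSlc25a26 label less the PE effect under siNeg, on the log2 scale, was 1.43 for Ctgf, 1.24 for Tnc, 1.12 for Cyr61, 1.09 for Thbs1, 0.77 for Fn1 and 0.71 for Lox. For Ctgf and Cyr61 the PE libraries differed and the libraries without PE were alike within 1.5-fold; for Tnc, Fn1 and Thbs1 it was the libraries without PE that differed by more than 1.5-fold. The libraries labelled siSlc25a26 PE had the Slc25a26 level of siNeg PE at harvest, and the cause of these differences was not tested.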

How the results depend on the processing

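Over the 5 comparisons, the log2 fold changes of the members gave 441 values under other settings with all libraries. Of these, 422 were on the same side of the call, 12 newly past it, 2 no longer past it and 5 had a turned sign. The 324 values with a library left out gave 308, 5, 1 and 10. Counts of members called are not in these tallies. No value that turned sign was called in either fit, and the cause was not tested. Under PE, the siSlc25a26 value of Timp1 was -0.0175 with at least 10 counts in every library, -0.0988 on log2(FPKM + 1) and -0.0993 on log2(FPKM + 0.1), and that of Fn1 -0.0305 and -0.0306. With a library left out, PE in siNeg ran from -0.187 to 0.138 for Ctgf and -0.162 to 0.00622 for Cyr61; siSlc25a26 without PE from -0.0237 to 0.0809 for Timp1; siSlc25a26 under PE from -0.120 to 0.0627 for Timp1 and -0.0235 to 0.105 for Fn1; PE in siSlc25a26 from -0.248 to 0.0282 for Spp1 and -0.168 to 0.105 for Lox. Without a fold threshold, 4 members in place of 2 were higher under PE and 1 in place of 0 was lower for PE in siSlc25a26; the members lower for the difference between PE effects ran from 0 to 1 with a library left out. On FPKM the Lox difference was 0.48 and 0.52 (limma, adjusted p = 0.0716 and 0.0765).

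With a replicate block, members called lower for PE in siNeg numbered 4 in place of 3, Thbs1 joining them (-0.59, adjusted p = 0.000113), and no other member's call changed; replicate numbers do not pair the libraries, since same-numbered deviations correlated at 0.144, 0.00908 and 0.216 for PE in siNeg, 0.0355, -0.0913 and 0.0562 for siSlc25a26 without PE, 0.209, 0.0251 and 0.169 under PE and -0.0732, -0.00535 and -0.0391 for PE in siSlc25a26. Counts over all genes depended more on the scale than members did. On log2(FPKM + 1), with the median of all genes at -0.14 for PE in siSlc25a26, that comparison gave 566 higher and 1498 lower (740 and 2048 with 0.1 added) in place of 1389 and 1436. The same setting gave 854 higher and 731 lower in place of 1708 and 1130 for PE in siNeg, 453 lower in place of 996 without PE and 622 higher in place of 1054 under PE. Without a fold threshold the counts were 3456 and 3329, 3223 and 2998, 2744 and 2744, 3634 and 3585, and 773 and 808 for the difference, whose main counts were 305 and 471; on FPKM it gave 164 and 544 (198 and 735 with 0.1 added), and 301 lower without replicate 3 of siNeg PE.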
